A study of Mus musculus with 8 samples.

Results

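The Ly6/uPAR genes described here are 9 genes of mouse esophageal epithelium, Ly6a, Ly6c1, Ly6d, Ly6e, Ly6g6c, Ly6k, Slurp1, Lypd2 and Lypd3, out of 55276 gene symbols in the count table. They were listed because Ly6g6c had one of the largest differences between the sorted fractions, so the High and Low values of all 9 are given as a description. Where calls of the 9 between the fractions are counted, nothing is read from them. Another 35 genes of the same family were looked up beside them. The data were bulk RNA-seq of 8 libraries from 4 C57BL6 mice aged 14 to 15 weeks, 2 female (Female1, Female2) and 2 male (Male1, Male2), with no genotype or drug named in the labels. The epithelial layer of each esophagus was peeled off, digested to single cells and stained with Cyto-ID, a dye that labels autophagic vesicles. Live cells positive for Integrin-b1 were sorted by that dye, which gave each animal 1 Cyto-ID Low and 1 Cyto-ID High library. Both groups share the Integrin-b1 gate, which the labels describe as the basal cell compartment, and the sort parted them by the dye.

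Proteins of this family are built on a compact three-finger fold, the LU domain, whose loops are held together by disulfide bonds between conserved cysteines. Most are tethered to the outer membrane leaflet by a glycosylphosphatidylinositol (GPI) anchor, and a few, such as the SLURP proteins, are secreted. In stratified squamous epithelium Lypd3 and Ly6d are known as surface proteins of keratinocytes, and SLURP1 is a secreted ligand of nicotinic acetylcholine receptors whose loss causes the human skin disease mal de Meleda. Ly6a, the stem cell antigen of mouse blood progenitors, Ly6c1 and Ly6e are known as interferon-inducible, and Ly6a and Ly6c1 are also used as leukocyte and endothelial antigens.

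A shared spacing of cysteines can be read from the coding sequences. By itself it does not show the fold, and its share among other genes was not counted. Each of the 9 genes has, within its first 50 codons, a pair of cysteine codons (TGT or TGC) with 2 codons between them, at codons 23 and 26 in Ly6d, Ly6g6c and Ly6k, 25 and 28 in Slurp1 and Lypd2, 29 and 32 in Ly6a, Ly6c1 and Ly6e, and 35 and 38 in Lypd3. The first 90 coding bases of 4 genes that were higher in Cyto-ID High are shown for that pair, 5′ to 3′ from the GENCODE M21 transcripts, with every in-frame cysteine codon in capitals.
Ly6g6c: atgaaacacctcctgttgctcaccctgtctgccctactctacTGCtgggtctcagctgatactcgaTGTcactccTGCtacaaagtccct
Ly6d: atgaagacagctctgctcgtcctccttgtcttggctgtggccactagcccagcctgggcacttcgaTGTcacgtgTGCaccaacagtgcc
Slurp1: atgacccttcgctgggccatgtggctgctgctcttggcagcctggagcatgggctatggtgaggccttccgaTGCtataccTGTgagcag
Lypd2: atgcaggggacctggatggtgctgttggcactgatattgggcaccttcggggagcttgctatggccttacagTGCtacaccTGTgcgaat
The coding sequences hold 110 to 154 codons and 10 to 12 cysteine codons in 8 of the genes, and 363 codons with 19 cysteine codons in Lypd3, which carries more than 1 LU domain. Outside such positions the genes are far apart. Ly6a and Ly6c1 are identical at 82% of aligned coding positions, and the next closest pair, Ly6d and Ly6g6c, at 54.1%.

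The genes lie in 3 places of the GRCm38 assembly. Chromosome 15 holds 7 of them between positions 74724318 and 75048830, in the order Slurp1, Lypd2, Ly6d, Ly6k, Ly6e, Ly6a and Ly6c1. Ly6g6c is on the plus strand of chromosome 17 (chr17:35065388-35070050), in the class III region of the major histocompatibility complex, and Lypd3 on the plus strand of chromosome 7 (chr7:24636550-24641118). In RefSeq's promoter table for GRCm38.p6, 3 of the 9 genes were matched (Ly6g6c, Lypd3, Ly6c1), and Ly6a, Ly6d, Ly6e, Ly6k, Slurp1 and Lypd2 are named only. The 250 bases before the start are shown for Ly6g6c and Lypd3, which were both higher in Cyto-ID High, and for the first listed start of Ly6c1, which was not, with motif matches on either strand in capitals.
Ly6g6c, chr17:35067075-35067324, plus strand: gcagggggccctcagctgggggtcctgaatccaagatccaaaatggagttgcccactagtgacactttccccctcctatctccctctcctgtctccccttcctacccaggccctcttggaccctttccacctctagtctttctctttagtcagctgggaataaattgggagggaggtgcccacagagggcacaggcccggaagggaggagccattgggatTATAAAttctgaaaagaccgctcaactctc
Lypd3, chr7:24636320-24636569, plus strand: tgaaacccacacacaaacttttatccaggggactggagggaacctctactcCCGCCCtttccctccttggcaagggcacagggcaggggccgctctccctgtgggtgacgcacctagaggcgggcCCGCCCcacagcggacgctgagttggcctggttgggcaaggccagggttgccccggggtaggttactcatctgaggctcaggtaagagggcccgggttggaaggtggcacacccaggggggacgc
Ly6c1, chr15:75048838-75049087, minus strand: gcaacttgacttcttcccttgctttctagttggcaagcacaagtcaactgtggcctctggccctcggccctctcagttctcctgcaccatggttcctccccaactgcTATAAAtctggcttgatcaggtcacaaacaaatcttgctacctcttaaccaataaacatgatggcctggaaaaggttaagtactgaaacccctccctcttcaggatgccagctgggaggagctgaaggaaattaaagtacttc
Ly6g6c had a TATA box (TATAAA) that begins 30 bases before the start, and Ly6c1 had one 143 bases before it. Of all 32851 promoters in the table, 12.4% held TATAAA in this window. Lypd3 had 2 GC boxes (GGGCGG), beginning 199 and 125 bases before the start, a motif that 32.7% of promoters held, and its window was 65.2% G and C against 55.2% for Ly6g6c and 48.4% for Ly6c1. None of the 3 windows shown matched CCACCC (28.1% of promoters), TGANTCA (6.75%), TTCNNNGAA (7.02%) or the core of the interferon-stimulated response element (2.98%). The second listed start of Ly6c1, not shown, differed from the first, with 2 matches of CCACCC, 24 and 20 bases before it, and no TATAAA. The Ly6g6c window lies in the first intron of a longer transcript of that gene in GENCODE M21. No motif was shared by Ly6g6c and Lypd3, and a match or its absence describes these letters only.

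The libraries held 26285150 to 29301054 counts. Cyto-ID High Male2 stood apart, with 22208 genes detected against 24820 to 28266 in the others and the lowest TMM scaling factor, 0.679. Values below are counts-per-million (CPM) after TMM scaling unless a scale is named. Summed markers of basal keratinocytes fell from 27860 ± 2271 CPM in Low to 8573 ± 2148 in High (SD, n = 4), and summed suprabasal markers rose from 21440 ± 8241 to 202800 ± 51160, so the High libraries carried the differentiating squamous transcripts although both fractions came through the gate labelled basal. Itgb1, which encodes the integrin of that gate, stood at 370 ± 32 CPM in Low and 68.2 ± 18.3 in High (log2 difference −2.44, SE 0.21, adjusted p = 2.16e-05 by edgeR), so its RNA was not at an equal level in the 2 fractions. By edgeR's quasi-likelihood test with sex as a covariate, 22 of 24 tested suprabasal genes were higher in High and 15 of 16 basal genes were lower. The other basal gene, Sfn, a 14-3-3 protein, was called higher, at 2137 ± 653 CPM in Low and 4648 ± 1670 in High (2.18-fold, adjusted p = 0.0054). Krt84, 1 of the 22 suprabasal genes, held 8 to 11 counts in Low and passed the low-count filter only with the High libraries. That fixes its direction. With at least 10 counts in every library, 21 of 23 suprabasal genes were higher. Examples of the suprabasal and basal genes are Lor, a cornified envelope protein (log2 difference 4.12, SE 0.64, adjusted p = 0.000528), and Lamb3, a basement membrane laminin chain (−3.96, SE 0.29, adjusted p = 1.4e-05). In bulk samples fewer cells of a type and less RNA per cell cannot be told apart.

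Of all 17344 genes tested, 48.7% were called between the fractions, 23.4% higher and 25.3% lower in High at an adjusted p under 0.05. Of the 9 Ly6/uPAR genes, all tested, 5 were called higher (Ly6d, Ly6g6c, Slurp1, Lypd2, Lypd3), 1 lower (Ly6a) and 3 neither (Ly6c1, Ly6e, Ly6k). The High and Low libraries of the same 6 did not overlap, as was true of 48.6% of all tested genes. The genes were chosen on this contrast, and Lypd2 passed the low-count filter only through the High libraries, so nothing is read from these counts. Together the 9 took 0.161 ± 0.029% of all counts in Low and 0.490 ± 0.066% in High.

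**Figure D1:**
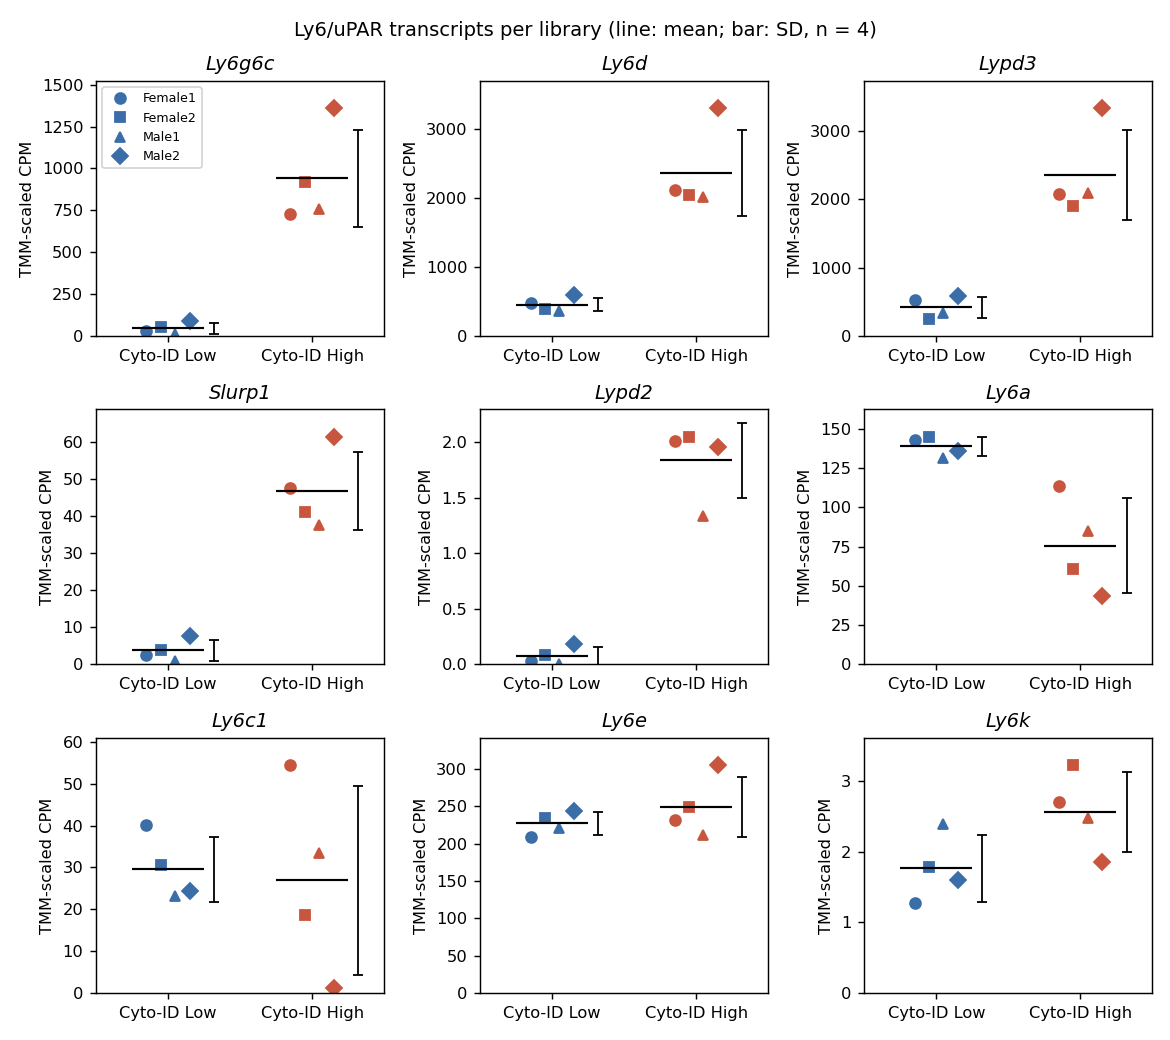
TMM-scaled CPM of the 9 genes in each library, with Cyto-ID Low in blue and Cyto-ID High in red, 1 symbol per animal, a line at the mean and a bar of 1 SD beside it. Ly6g6c, Ly6d, Lypd3, Slurp1 and Lypd2 have every High library above every Low library, Ly6a has every High library below, and Ly6c1 in High runs from 1.08 to 54.5 CPM.

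Ly6g6c, a GPI-anchored protein encoded beside other Ly6 genes in the histocompatibility complex, differed by the largest factor among the well-counted members. In the order Female1, Female2, Male1 and Male2, its Low libraries stood at 27.6, 55.7, 8.98 and 87.6 CPM. In High the same animals gave 729, 919, 756 and 1359 CPM. The groups were far apart, but the Low libraries themselves spanned a 9.76-fold range while the High libraries spanned a 1.86-fold range. The means were 45.0 ± 34.3 and 941 ± 291 CPM (SD, n = 4), a fitted log2 difference of 4.38 (SE 0.63) or 20.8-fold. It was 5.18 without Low Male2, 5.02 without both Male2 libraries and 3.78 with total counts only. Within animals it ran from 3.95 in Male2 to 6.38 in Male1, so the animal with the least Ly6g6c in its Low fraction had the largest difference. Ly6g6c ranked 22 of 17344 from the largest rise, and 6 among the 6309 called genes with a mean of at least 5 CPM.

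Slurp1, the secreted nicotinic ligand, followed the same order of libraries in the Low fraction. It stood at 2.47, 3.96, 1.06 and 7.73 CPM in Low (Female1, Female2, Male1, Male2) and at 47.6, 41.0, 37.6 and 61.4 CPM in High. The lowest High library was above the highest Low library, and the fitted log2 difference was 3.63 (SE 0.49), or 12.4-fold. It was 4.37 without Low Male2 and 4.23 without both Male2 libraries. Lypd2, a predicted GPI-anchored relative on the next locus, was the rarest of the 9. Its Low libraries held 1, 3, 0 and 6 counts and its High libraries 52, 47, 35 and 38, which is 1.34 to 2.05 CPM in High. It passed the low-count filter only through the High libraries. The ratio of its summed and depth-scaled counts was 24.4, with a 95% interval of 13.0 to 51.8 that describes counting error only and is no test of the fractions, and the fitted log2 difference was 4.54 (SE 0.63), or 5.55 without Low Male2. A count of 0, as in Low Male1, allows up to 3 counts or 0.0932 CPM in that library.

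In the Low fraction Ly6g6c, Slurp1 and Lypd2 all ordered the animals as Male1, Female1, Female2 and Male2 from lowest to highest. For Lypd2 that order rests on 0, 1, 3 and 6 counts. The summed suprabasal markers gave that order too, at 12520, 17840, 23640 and 31760 CPM, as did 4 other family genes, Ly6g6e, Ly6m, Slurp2 and Lypd5. The share of all tested genes with this order was not counted. Any part of the suprabasal content of the Low sort in these Low levels was not tested.

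Ly6d and Lypd3, the keratinocyte surface proteins, were already abundant in the Low fraction. Ly6d stood at 476, 397, 364 and 590 CPM in Low and at 2119, 2043, 2014 and 3305 CPM in High, in the order Female1, Female2, Male1, Male2. Lypd3 stood at 519, 251, 334 and 583 CPM in Low and at 2073, 1905, 2087 and 3329 in High. In both genes 3 High libraries lay close together with Male2 above them, and no High library reached down to the Low range. The fitted log2 difference was 2.37 (SE 0.23, 5.16-fold) for Ly6d and 2.47 (SE 0.30, 5.53-fold) for Lypd3. Ly6d was even across animals, with log2 differences from 2.15 to 2.49. The ratio of Lypd3 to Ly6d CPM was 0.907 ± 0.197 in Low and 0.989 ± 0.044 in High (SD, n = 4), so their balance was similar in both fractions, whereas the ratio of Ly6g6c to Ly6d moved from 0.0929 ± 0.0612 to 0.395 ± 0.046.

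Ly6a was the only one of the 9 with every High library below every Low library. It was very even in Low, at 143, 145, 132 and 136 CPM, and uneven in High, at 114, 60.6, 84.8 and 43.8 CPM in the same order of animals. The means were 139 ± 6 and 75.7 ± 30.3 CPM, a fitted log2 difference of −0.89 (SE 0.25), or 1.85-fold lower. Against Ly6d, which lies in the same chromosome 15 cluster, the balance shifted. The ratio of Ly6d to Ly6a CPM was 2.74 to 4.34 in the Low libraries and 18.7 to 75.4 in the High libraries. The log2 difference of Ly6a was −0.64 without both Male2 libraries and −1.40 with total counts only. Ly6a was not called without Low Female2, Low Male1, Low Male2 or both Male2 libraries.

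Ly6c1 showed no common direction. Its Low libraries stood at 40.2, 30.6, 23.1 and 24.3 CPM and its High libraries at 54.5, 18.6, 33.5 and 1.08 CPM. High Male2 held 21 counts, against 427 to 1411 in the other High libraries. Ly6c1 was higher in High in Female1 (log2 0.44) and Male1 (0.54) and lower in Female2 (−0.72) and Male2 (−4.41), and the fitted difference of −0.20 (SE 0.69) turned to 0.26 without the Male2 libraries and went to −1.11 without High Male1. Ly6c1 is also an endothelial antigen. All 13 endothelial markers listed were detected and tested, and none was called. Their summed level was 45.0 to 73.3 CPM in Low and 79.3, 39.8, 57.4 and 25.6 CPM in High, with Kdr at 0 counts in High Male2 and no other marker of this list at 0 in any library. In High the order Female1, Male1, Female2, Male2 was the same for Ly6c1, Ly6a and the summed endothelial, leukocyte, fibroblast and muscle markers, and for 5 other family genes (Ly6c2, Ly6h, Psca, Gpihbp1, Cd59a). The leukocyte sum in High ran from 18.4 in Male2 to 238 in Female1 and the fibroblast sum from 63.7 to 528 CPM, over 15 and 12 listed genes, against 100 to 185 and 411 to 604 in Low. Of 12 tested leukocyte genes 1 was called higher (Cd52, not called with total counts only, adjusted p = 0.300) and 1 lower (Cd207), and 2 of 12 fibroblast genes (Dcn, Fbln1) and 1 of 12 muscle genes (Tnni2) were lower, beside 23.4% higher and 25.3% lower among all tested genes. The call of Cd52 was also lost without High Female1, Low Female2, Low Male1 or High Male1. Leukocyte genes were at 0 counts in High Male2 (Cd3e, Cd3g), High Female2 (Cd3e) and High Male1 (Cd79a). The muscle genes Actg2, Myh2 and Tnnc2 were at 0 in High Male2, and no fibroblast marker was at 0 in any library. The part of such cells in the Ly6a and Ly6c1 values was not tested.

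**Figure D2:**
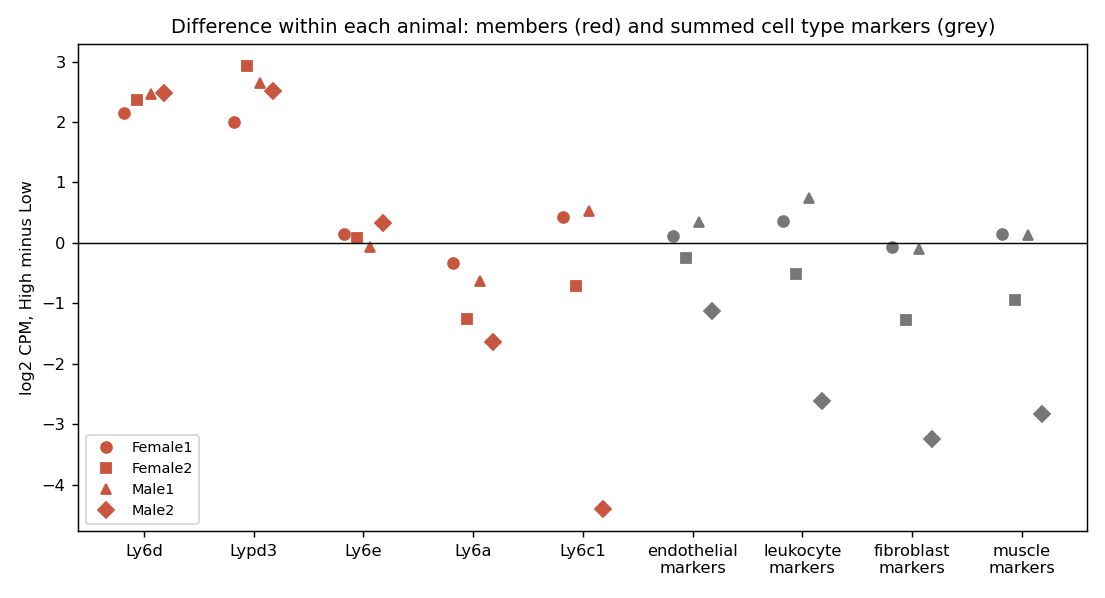
Difference of log2 CPM, High minus Low, within each of the 4 animals, for 5 Ly6/uPAR genes in red and the summed CPM of 4 cell type marker lists in grey. Ly6d and Lypd3 lie between 1.997 and 2.92 in every animal, while Ly6c1 and the leukocyte and fibroblast sums share their lowest point, Male2.

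Ly6a and Ly6c1 also share transcript sequence with other family genes. Of the 50-base stretches in their transcripts, 17.7% of those of Ly6a and 32.8% of those of Ly6c1 occur in another family gene, against 0 for the other 7 members. Ly6c1 shared most with Ly6c2 (21.5%) and Ly6a most with Ly6c1 (15.0%). Reads in such stretches may have been split or dropped in counting, in a way not given in the sources used here. The first 150 coding bases of both are shown with the 14 positions that differ in capitals, which leaves them 90.7% identical there.
Ly6a: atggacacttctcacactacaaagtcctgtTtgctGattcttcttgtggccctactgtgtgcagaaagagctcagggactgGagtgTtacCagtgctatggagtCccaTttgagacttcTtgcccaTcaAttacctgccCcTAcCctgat
Ly6c1: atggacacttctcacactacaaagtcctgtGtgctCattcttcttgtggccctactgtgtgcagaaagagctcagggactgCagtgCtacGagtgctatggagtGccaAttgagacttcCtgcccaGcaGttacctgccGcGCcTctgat

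Ly6e and Ly6k overlapped between the fractions. Ly6e, an interferon-inducible GPI-anchored protein, stood at 209, 235, 221 and 244 CPM in Low and 232, 249, 212 and 305 CPM in High, with overlapping groups and a log2 difference of 0.13 (SE 0.16). Ly6k, known from testis where it acts with Tex101 in sperm function, stayed at 1.27 to 2.39 CPM in Low and 1.85 to 3.22 CPM in High, with a log2 difference of 0.54 (SE 0.29). Both signs depend on the scaling. With total counts only, the median of all genes moved from −0.09 to −0.64, Ly6e went to −0.45 and Ly6k to −0.02. Under that scaling 2194 genes were called higher and 8514 lower, in place of 4055 and 4385. Ly6e was then among the lower calls, and the 6 members without overlap had the same direction.

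Levels were compared between genes per kb of exon, and on that scale the order of the family changed between the fractions. In Low, Ly6d was highest at 614 ± 135 CPM per kb (SD, n = 4), followed by Lypd3 at 256 ± 94, Ly6a at 115 ± 5 and Ly6e at 60.0 ± 4.0, with no overlap between neighbours in this order. Ly6g6c (32.9 ± 25.1) came next and overlapped both Ly6e above it and Ly6c1 (17.6 ± 4.7) below it, and Ly6k (2.13 ± 0.57) overlapped Slurp1 (1.30 ± 0.98). Lypd2 was last at 0.108 ± 0.117. In High, Ly6d (3186 ± 840) and Lypd3 (1424 ± 400) were again highest and Ly6g6c came after them at 688 ± 213, each without overlap with the next. Ly6e (65.9 ± 10.6) and Ly6a (62.8 ± 25.2) overlapped there, as did Ly6c1 (16.0 ± 13.5) with Slurp1 (16.0 ± 3.6), and Ly6k (3.09 ± 0.68) with Lypd2 (2.704 ± 0.495). Within the summed level of the 9 genes per kb, Ly6d took 55.9 ± 1.2% in Low and 58.3 ± 0.4% in High, Ly6g6c 2.85 ± 1.91% and 12.5 ± 1.4%, and Ly6a 10.9 ± 2.3% and 1.25 ± 0.62%.

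**Figure D3:**
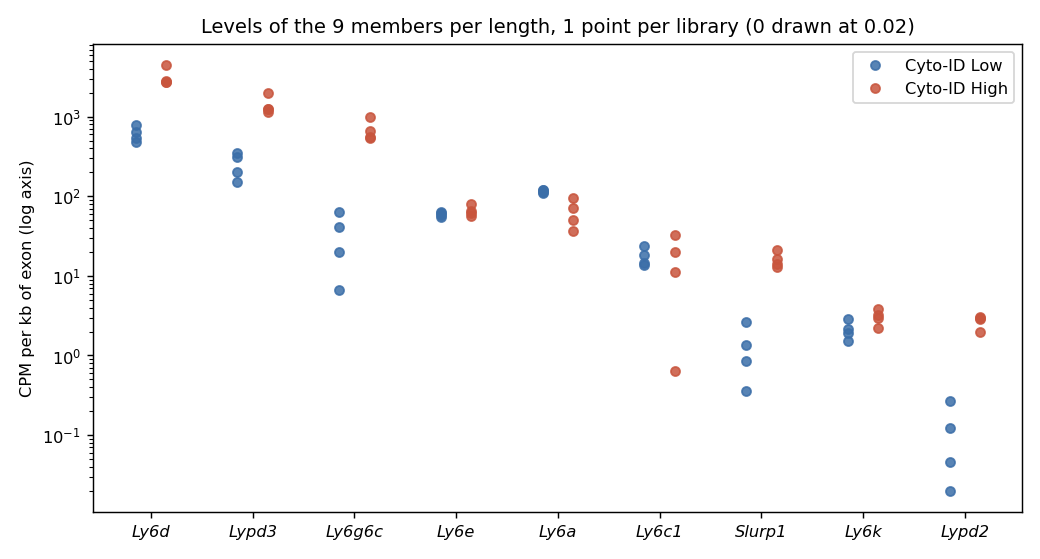
Level of the 9 genes in CPM per kb of exon on a log axis, 1 point per library, ordered by their mean in Cyto-ID High. Ly6g6c moves from 6.57 to 64.1 in Low to 534 to 994 in High, while Ly6e overlaps between the fractions. The Low Male1 library, at 0 for Lypd2, is drawn at 0.02.

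Of the 35 other Ly6/uPAR genes, 17 passed the low-count filter, and 18 did not, 7 of them with 0 counts in every library. By edgeR's quasi-likelihood test 8 of the 17 were called higher, 2 lower and 7 not, beside 23.4% higher and 25.3% lower among all tested genes. Of these calls, 3 of the higher (Slurp2, Tex101, Lypd8) and 1 of the lower (Cd59b) are of genes that passed the filter only with the fraction where they were high, which fixes their direction, so the counts support nothing by themselves. Their median log2 difference was 0.26 against −0.09 over all tested genes, but this median took either sign over the alternatives. It was −0.11 without High Female1, −0.12 without High Male1, −0.18 by limma-voom (all genes −0.13) and 0.96 without Low Female2 or High Female2. Under total counts it was −0.22 against −0.64, with 8 higher and 5 lower. With at least 10 counts in every library 10 genes were tested, of which 5 were higher (Lypd5, Ly6g6e, Ly6m, Pinlyp, Lynx1) and 2 lower (Cd59a, Lypd6). This list was drawn up with earlier results known, and the members are outside it.

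Among the other family genes Lypd5 rose from 51.8 ± 34.6 to 816 ± 196 CPM (3.98, SE 0.54, adjusted p = 0.000241), with a log2 difference of 4.67 without Low Male2. Lynx1, a GPI-anchored modulator of nicotinic receptors, rose by less, from 16.7 ± 3.1 to 49.2 ± 11.7 CPM (1.56, SE 0.20, adjusted p = 0.000193). Pinlyp, named for a phospholipase A2 inhibitor domain, rose from 33.6 ± 10.9 to 237 ± 68 CPM, Ly6g6e from 14.2 ± 6.5 to 142 ± 30, and Ly6m from 6.80 ± 2.73 to 62.3 ± 16.2, with adjusted p-values of 3.3e-05, 3.5e-05 and 5.3e-05. The other 3 are given by their values alone, since their being tested rested on the High libraries. Slurp2, the second secreted SLURP protein and a neighbour of Slurp1, stood at 1.18 ± 1.10 CPM in Low and 20.2 ± 8.3 in High (log2 difference 4.10, SE 0.58, or 4.93 without Low Male2), with 6 counts in Low Male1. Tex101, a germ cell GPI protein, and Lypd8, which binds flagellated bacteria in the colon, had 14 and 13 counts summed over the Low libraries and 137 and 67 over the High. In all 8 genes every High library was above every Low library, as in 23.6% of all tested genes. The 8 were picked by their call on these same libraries, so nothing is read from this.

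Cd59a, a GPI-anchored inhibitor of the complement membrane attack complex, fell from 4.86 ± 0.32 to 1.56 ± 0.81 CPM (−1.63, SE 0.35, adjusted p = 0.00334). Its paralog Cd59b stood at 0.541 ± 0.178 CPM in Low and 0.180 ± 0.070 in High (−1.59, SE 0.42), with 3 to 7 counts in each High library, and is given by these values alone because it passed the filter only through the Low libraries.

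Among the genes not called, Plaur, the urokinase receptor that gives the family its name, depended on single libraries and on the processing. It stood at 220, 24.7, 202 and 199 CPM in Low and 68.7, 41.6, 53.0 and 146 CPM in High (log2 −1.08, SE 0.56, adjusted p = 0.140). Without Low Female2 the difference was −1.42 with an adjusted p of 0.0117, and without Low Female1 it was −0.29 with an adjusted p of 0.724. With all libraries it was called with total counts only (−1.66, adjusted p = 0.0291) and with no filter on low counts (−1.12, adjusted p = 7.93e-08). Low Female2 also had summed gastric markers of 19.1 CPM against 0.513 to 1.11 in the other Low libraries, and their part in the Plaur value was not tested. Lypd6 was lower in High in all 4 animals (−0.72, SE 0.30, adjusted p = 0.0707) and passed with the animal as a replicate block (−0.73, adjusted p = 0.00119), with no filter on low counts (−0.76, adjusted p = 0.000433), with at least 10 counts in every library (−0.77, adjusted p = 0.037), without Low Female1 (−0.92, adjusted p = 0.0239) and without High Male2 (−0.88, adjusted p = 0.0458). Lypd6b, at 39.9 ± 7.6 and 35.0 ± 5.2 CPM, and Psca, at 7.13 ± 2.82 and 7.54 ± 5.34 CPM, overlapped between the groups. Ly6c2, a myeloid surface antigen, Ly6h, and Gpihbp1, which holds lipoprotein lipase on capillary endothelium, stayed at 1.19 CPM or below on average, and all 3 were at 0 counts in High Male2.

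**Figure D4:**
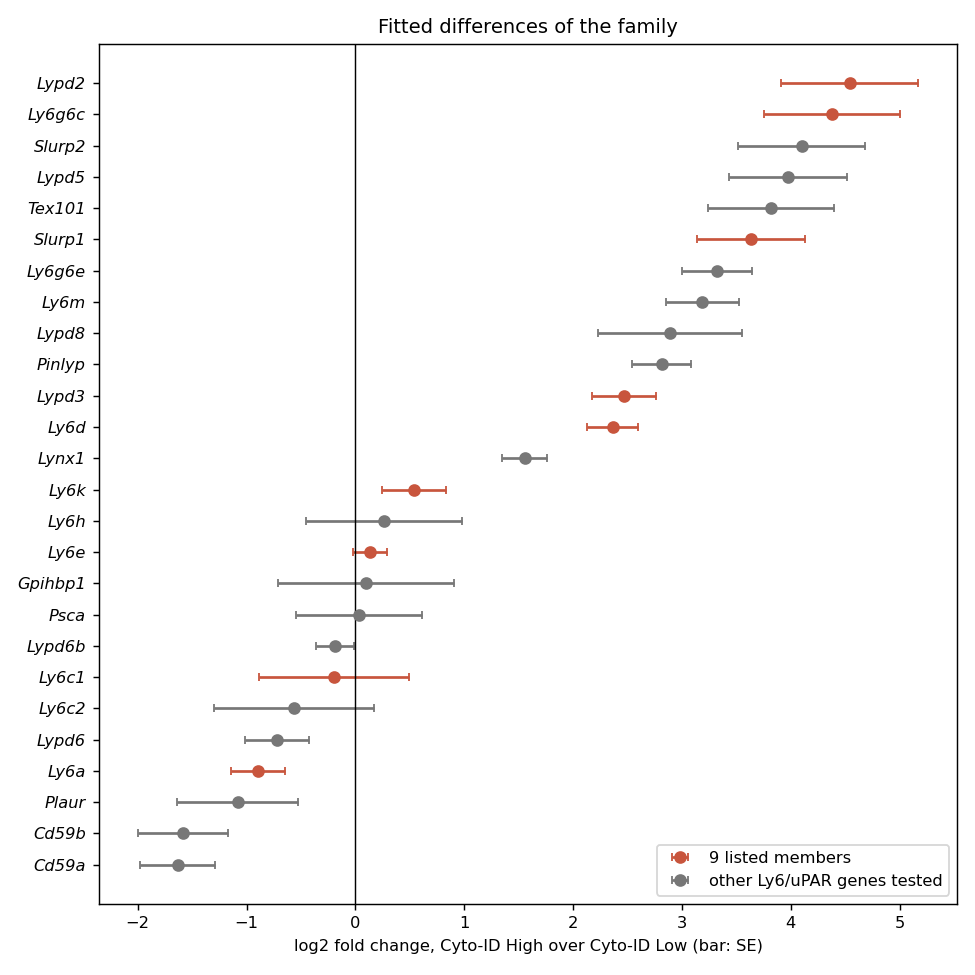
Fitted log2 fold change of Cyto-ID High over Cyto-ID Low for the 9 listed genes in red and the 17 other tested family genes in grey, with bars of 1 SE. The values run from −1.63 for Cd59a to 4.54 for Lypd2, and Psca (0.04), Gpihbp1 (0.10) and Ly6e (0.13) lie nearest to 0. With total counts only, Ly6e, Ly6k, Ly6h, Psca and Gpihbp1 change sign.

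In the chromosome 15 cluster, Slurp1, Lypd2, Slurp2, Lynx1 and Ly6d follow each other and had log2 differences of 1.56 to 4.54. Psca, the family gene next to them beyond Slurp1, had a log2 difference of 0.04 (SE 0.58, adjusted p = 0.968). The tested family genes on the other side of Ly6d, which are Ly6k, Ly6e, Ly6a, Ly6c1 and Ly6c2, lay between −0.89 and 0.54. Of the 18 other genes within 100 kb of that cluster, 4 were tested and 1, Arc, was called higher (1.04, SE 0.35, adjusted p = 0.0328). Around Ly6g6c on chromosome 17, Ly6g6e was called higher, and of 15 other tested genes 6 were higher and 2 lower. Around Lypd3 on chromosome 7, the family gene Pinlyp and 4 of 6 other tested genes were higher and 1, Xrcc1, was lower, and Tex101 had the counts given with the other family genes. Of those 4, Gm4598 had 1, 8, 3 and 9 counts in Low and 66, 65, 71 and 51 in High. It passed the filter only through the High libraries, which fixes its direction. Among all tested genes 23.4% were higher and 25.3% lower, and no test of position was made.

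**Figure D5:**
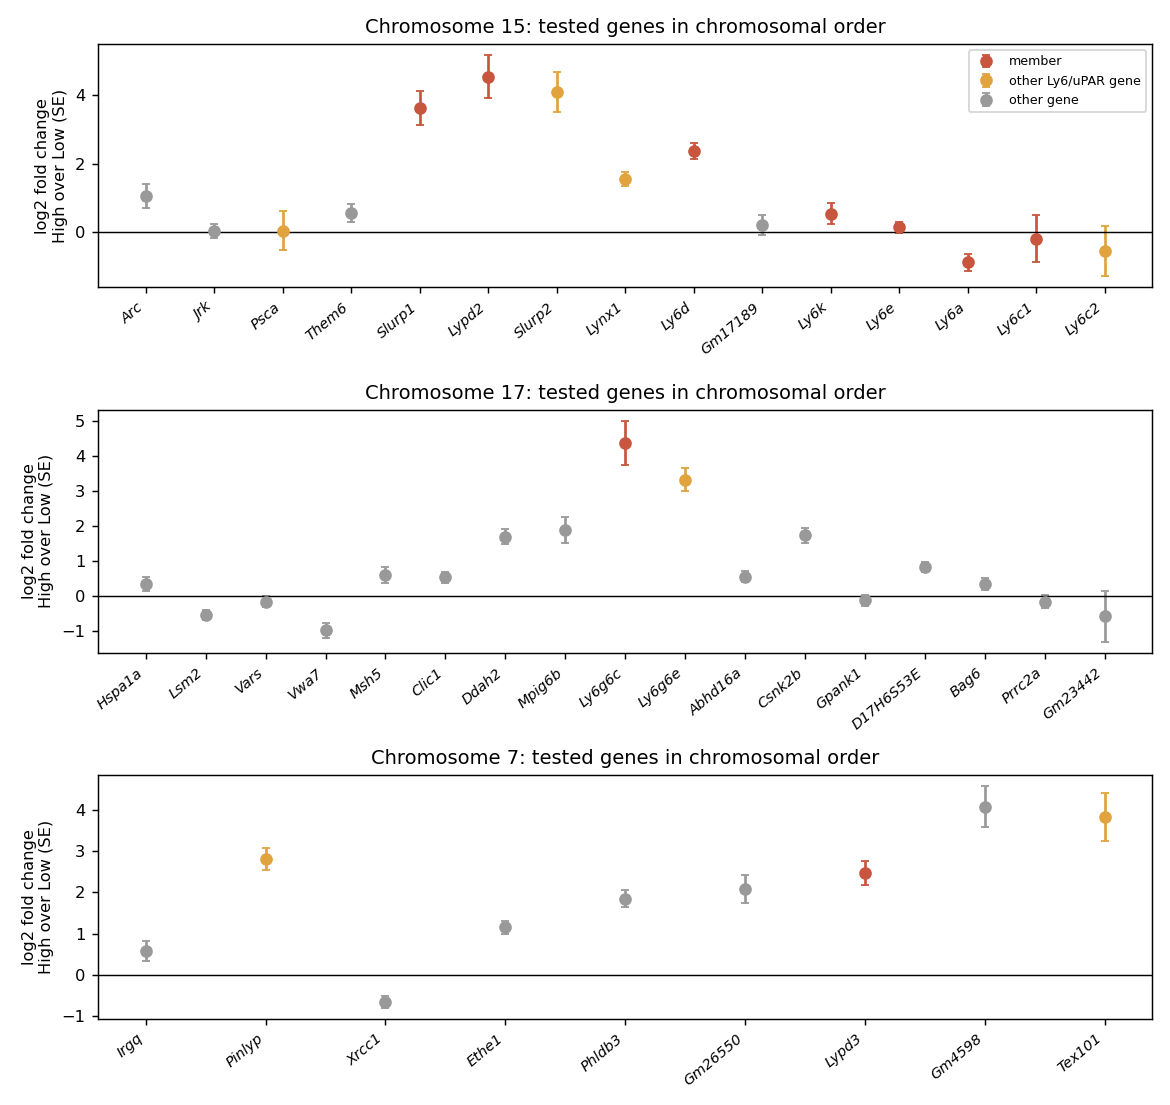
Fitted log2 fold change of High over Low with bars of 1 SE for every tested gene within 100 kb of the 9 genes, in chromosomal order, with the 9 in red, other family genes in yellow and unrelated genes in grey. On chromosome 15 the values fall from 3.63 to 4.54 at Slurp1 and Lypd2 to −0.89 at Ly6a.

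Exons of 4 members overlap a gene on the other strand, and strand use in the counting is not given in the sources used here, so reads from both cannot be told apart there. The partners are Mpig6b, a platelet receptor gene, for Ly6g6c, Them6 for Slurp1, Gm17189 for Ly6k and Gm26550 for Lypd3. Mpig6b was itself called higher (1.88, SE 0.38, adjusted p = 0.00262), with every High library above every Low library. Its CPM were 0.0291 ± 0.0210 of those of Ly6g6c in Low and 0.00329 ± 0.00045 in High. Them6 stood at 4.57 ± 1.21 CPM in Low, above the 3.80 ± 2.87 of Slurp1, and at 6.74 ± 1.83 against 46.9 ± 10.5 in High. It was not called (0.56, SE 0.26, adjusted p = 0.107) beside the log2 difference of 3.63 in Slurp1. Gm17189 stood at 0.687 ± 0.046 and 0.797 ± 0.057 CPM, against 1.76 ± 0.47 and 2.56 ± 0.57 for Ly6k, and was not called (0.21, SE 0.29, adjusted p = 0.601). Gm26550 differed by 2.08 (SE 0.35, adjusted p = 0.0008), close to the 2.47 of Lypd3. Its level was 1.968 ± 0.706 CPM in Low and 8.469 ± 4.135 in High, against 421.6 ± 155.3 and 2348 ± 658.9 for Lypd3.

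The genes that work with the family were counted from lists. Of 16 nicotinic receptor subunits, the receptors that SLURP proteins and Lynx1 act on, 2 passed the low-count filter, Chrnb1 at 1.43 ± 0.52 and 1.85 ± 0.33 CPM and Chrnb2 at 1.76 ± 0.29 and 1.15 ± 0.19 CPM in Low and High, and neither was called (adjusted p = 0.320 and 0.105). Every High library was below every Low library for Chrnb2, and 1 of the 2 subunits was called lower with total counts only and with at least 10 counts in every library. Genes of plasminogen activation, the system of the urokinase receptor, moved in both directions by edgeR's quasi-likelihood test. Serpinb5, an epithelial serpin, rose from 442 ± 35 to 933 ± 143 CPM (adjusted p = 0.000567) and Plgrkt, a plasminogen receptor, from 19.9 ± 1.0 to 26.2 ± 3.0 (log2 difference 0.40, adjusted p = 0.0306), which turned to −0.17 with total counts only (adjusted p = 0.209). Plau, the urokinase itself, fell from 44.4 ± 4.4 to 31.8 ± 4.1 CPM and the intracellular serpin Serpinb6a from 140 ± 11 to 34.8 ± 17.2, with adjusted p-values of 0.0117 and 0.000505.

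Of 26 tested genes of GPI anchor synthesis and remodelling, 14 rose and none fell, beside 23.4% higher among all tested genes. Pgap1, the deacylase that remodels the anchor, rose from 17.2 ± 1.6 to 59.5 ± 13.8 CPM (1.79, SE 0.18, adjusted p = 4.5e-05), Pigg, an ethanolamine phosphate transferase, from 13.5 ± 1.1 to 38.5 ± 6.2 (1.52, SE 0.16, adjusted p = 4.6e-05) and Pgap3 from 12.1 ± 1.7 to 28.7 ± 7.7 (1.23, SE 0.20, adjusted p = 0.000609). The median log2 difference of the list was 0.47 against −0.09 over all genes. With total counts only it was −0.10 against −0.64, with 4 higher and 4 lower, so the direction of the list depends on the scaling.

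Of 25 interferon response genes, the programme that induces Ly6a, Ly6c1 and Ly6e in other cells, 6 rose, 4 fell and 15 were not called, near or below the 23.4% higher and 25.3% lower among all tested genes, with a median of −0.02 against −0.09. With total counts only, 2 were higher and 4 lower, and the median of −0.55 stood beside −0.64 for all genes. Isg15, a ubiquitin-like modifier, rose from 2.17 ± 0.74 to 7.09 ± 2.75 CPM, Bst2, a GPI-anchored antiviral protein, from 3.16 ± 0.61 to 8.25 ± 2.22, and Ifit1 from 0.774 ± 0.311 to 1.75 ± 1.14, a call lost with total counts only (adjusted p = 0.281). Irf1, an interferon-response transcription factor, fell from 71.3 ± 8.9 to 14.3 ± 5.5 CPM, Usp18, which removes Isg15 from proteins, from 17.6 ± 1.7 to 3.68 ± 1.26, and Ddx58, a viral RNA sensor, from 14.9 ± 2.7 to 5.09 ± 1.26. Beside them, the log2 differences of Ly6a, Ly6c1 and Ly6e were −0.89, −0.20 and 0.13.

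The 3 genes most like each member were found by Pearson r of log2 CPM over the 8 libraries, among genes with a mean of at least 5 CPM. Since the libraries form 2 groups and the animals are shared, a high r of a member that differs between the fractions largely restates that difference. For Ly6g6c they were Lypd5, Alox12b and Pla2g2f (each r 0.999), of which Alox12b is a lipoxygenase of the skin barrier. For Slurp1 they were Dkkl1 (0.999), Slurp2 and Pglyrp3 (both 0.998). For Ly6d they were Tubb2a, Tubb2b (both 0.999) and Kcnk7 (0.998), and for Lypd3 Mdfi, Lgals3 (both 0.996) and Shb (0.995). For Lypd2 they were Guk1 (0.997), Vstm5 and Myl7 (both 0.996). Ly6a lay closest to Actn1, H2-Ab1 and Bmp1 (each 0.993), and Ly6c1 to Itga7, Sh2d5 and C1qa (each 0.999; log2 differences between the fractions −0.26, −0.09 and −0.11), of which C1qa is a macrophage complement gene and H2-Ab1 a class II histocompatibility gene. Ly6e (Pes1 0.970, Dtnbp1 0.968, Ubb 0.966) and Ly6k (Ndufaf2 0.920, Mff 0.902, Fam45a 0.887) had no match as close.

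After the fraction means were subtracted, the nearest gene of Ly6g6c was Atp2c2 (0.999), a calcium pump, that of Slurp1 was Cited4 (0.991), that of Ly6d again Tubb2a (0.991), that of Lypd2 again Guk1 (0.974) and that of Lypd3 Shb (0.971). Those of Ly6c1 were Itga7 (1), Stab1 and Sostdc1 (both 0.999), of which Stab1 is a scavenger receptor of macrophages and sinusoidal endothelium, and that of Ly6a was Lyn (0.994), a kinase of leukocytes. For Ly6e it was Nelfe (0.989) and for Ly6k Anapc10 (0.980). These are descriptions over 8 libraries from 4 animals, and for Ly6c1 the values spread mainly through High Male2, at 1.08 CPM against 18.6 to 54.5 in the other High libraries.

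The difference between the sexes is independent of the contrast that chose the genes, and was tested on counts summed over both fractions of each animal, 2 males against 2 females. By edgeR's quasi-likelihood test 0.0203% of 19687 genes were called, 4 in all, and none of the 9 was among them (adjusted p = 1 for each). Ly6c1 had the largest estimate, at 48.1 and 26.6 CPM in the females and 27.9 and 15.8 CPM in the males (log2 difference, male minus female, −0.77, SE 0.34), with an unadjusted p of 0.0489. The other 8 lay between −0.32 for Lypd2 (SE 0.42) and 0.34 for Lypd3 (SE 0.26). Whether the High against Low difference depends on sex was tested as an interaction. It called 0% of 17344 genes, 0 in all, and 19 (0.11%) at an unadjusted p under 0.05 by edgeR, and 0 and 5 by DESeq2. The unadjusted count was unstable, at 160 with no filter on low counts and from 49 (without High Male2) to 1197 (without High Male1) with 1 library left out, while the adjusted count was 0 in each. None of the 9 was called. The estimates of the 9, male minus female, ran from −0.93 (SE 1.39) for Lypd2 and −0.83 (SE 0.57) for Ly6k to 0.23 (SE 0.48) for Ly6d. With 2 animals of each sex, differences of the size of these standard errors were not detectable.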

How the data were processed

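The table that the authors deposited gives raw counts by gene symbol. The unit follows from the values, which are whole numbers whose totals differ between the 8 libraries. The submitters' processing notes name STAR 2.7.3, DESeq2 and GRCm38. The counting tool, annotation, strandedness and any filter are not given in the sources used here. Groups came from the labelled Cyto-ID fraction, and both fractions of an animal came from 1 cell suspension.

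In edgeR 4.0.16 (R 4.3.3), genes were filtered by filterByExpr on the fraction, TMM-scaled and fitted by glmQLFit, with sex beside the fraction in the design. P-values from glmQLFTest were two-sided and adjusted by Benjamini-Hochberg over all tested genes, with calls at 0.05. Each SE was derived from the fold change and F. A prior count of 2 entered log2 CPM. Exon lengths, overlaps and coding sequence came from GENCODE M21 (GRCm38), where 53275 of 55276 symbols matched 1 gene. Named were the 9 members, every other family gene past the filter, and up to 3 called genes per direction with the largest change in each other list, except that the nicotinic subunits, Itgb1 and neighbouring genes were named after their values were seen. A result of the plasminogen activation list, and with it the list's counts, is not reported here. Members and lists were chosen with earlier results of these data known. The fits were tested on simulated data.

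Same-animal libraries are pairs by label, and their deviations from the fraction means correlated across genes at 0.433 (Female1), 0.316 (Female2), −0.0161 (Male1) and 0.277 (Male2). No 2 libraries of a fraction agreed within sampling noise (chi-square per degree of freedom at least 17.7). Alternatives were RLE size factors, scaling by totals, other filters (none, or 10 counts in each library), DESeq2 1.42.0, limma-voom (limma 3.58.1), a fit without sex, a replicate block by animal, and each library left out. Leaving out both Male2 libraries, or single animals in the test of sex, was chosen after seeing the data.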

Additional observations from a re-analysis of the deposited data

Results flagged for a closer look

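In 8 of the 62 groups of 4 libraries examined for the members, the other tested family genes and the marker sums, 1 library stood far from the other 3 (its gap to the nearest, as a share of the range, was above Dixon's 95% critical value). Chance gives such a gap in about 1 group in 20.

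High Male2 was such a library for Ly6d at 3305 CPM (the others 2014 to 2119), for Lypd3 at 3329 CPM (1905 to 2087) and for Slurp2 at 32.72 CPM (15.29 to 16.48). The same library had the lowest TMM factor, 0.679, and the part of that in these values was not tested. High Male1 was low for Lypd2 at 1.335 CPM (1.955 to 2.046), and Low Male2 was high for Lypd8 at 0.2717 CPM (0.02749 to 0.06177). Low Female2 was low for Plaur at 24.69 CPM, where the other Low libraries gave 199.4 to 219.9. Gastric markers, the sum of 8 genes in the table, stood at 19.11 CPM in Low Female2 (0.5132 to 1.112 in the others) and at 112.7 CPM in High Female2 (0.8389 to 0.9775).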

How the results depend on the processing

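Across 17 alternatives the number of genes called between the fractions ran from 7269 to 10708 against 8440. With the animal as a replicate block, 9336 genes were called, and among the family genes named it changed only the call of Lypd6 (log2 −0.73, adjusted p = 0.00119). Of the 9 members' log2 differences, 144 alternative values stayed within 1 SD of the differences between animals and 8 did not. Ly6c1, Ly6e and Ly6k took either sign and the other 6 did not. The members were chosen with this contrast known, so nothing is read from that. Those 8 were Ly6d (1.79), Ly6e, Ly6k and Lypd3 (1.90) with total counts only, Ly6d without Low Male1 (2.21) or High Male2 (2.18), and Lypd2 without Low Male2 (5.55) or both Male2 libraries (5.47). Total counts only also brought the calls of Lypd6, Lypd6b and Plaur (adjusted p = 0.00261, 0.0026 and 0.0291), and a lower call of the member Ly6e. The lower call of Ly6a was lost without Low Female2, Low Male1, Low Male2 or both Male2 libraries. No interaction was called under any alternative run. The count of genes that differ between the sexes was 4, but 15 with no filter on low counts, 9 with DESeq2, 0 in the 4 High libraries alone, 1 in the 4 Low libraries alone, and 6 to 48 with 1 animal left out (48 without Male1, 19 without Female1, 16 without Male2), and the cause was not tested. No member was among the called genes in any of them. Leaving out an animal leaves 1 sex with a single sample, assumed to vary like the other. Depth limits rare genes such as Lypd2, Tex101 and Lypd8, with 10, 14 and 13 counts summed over the 4 Low libraries.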
